A study of Homo sapiens with 17 samples.

Results

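Inter-LAD gaps are the stretches of a chromosome between one lamina-associated domain (LAD) and the next. The gaps described here are those that became covered by broad gains of H3K4me3 when Ras was switched on in IMR90, a human cell line of fibroblasts from lung. They were chosen by measured values: a gap on chromosomes 1 to 22, of at most 3 Mb, was included when at least 50% of its base pairs lay under Ras-induced H3K4me3 mesas. In all, 305 of 1959 gaps met the rule, which is 15.6% of gaps. They are called covered gaps below, and the remaining 1654 are called other gaps. A mesa, in the usage of the study, is a broad region with more of a mark in senescent cells than in their reference, and a canyon is a broad region with less.

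The Ras experiment compared cells at population doubling 15, carrying a retroviral ER:Ras construct and given 100 nM 4-hydroxytamoxifen, with control cells at doubling 15. The labels do not say whether the controls carried the construct, and the length of induction is not given in the sources used here. Replicative senescence was studied in cells passaged until growth stopped, at doubling 87 and kept for 2 more weeks, against proliferating cells at doubling 24. The Ras-induced, control, senescent and proliferating H3K4me3 groups hold 1 library each, H3K27me3 was profiled in 2 senescent and 4 proliferating libraries, and lamin B1 in 1 proliferating library. LADs therefore come from proliferating cells at doubling 24, and no lamin B1 map of Ras-induced or control cells was used here. The region lists give coordinates on hg18 with no value per sample and no read depth. No difference below could be tested against replicates, and all shares are descriptions of the lists.

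The nuclear lamina is a meshwork of lamin filaments under the nuclear envelope, and the chromatin it holds in LADs is mostly gene-poor and silent. The gaps between LADs hold much of the active genome. H3K4me3 is placed by SET1 and MLL complexes and normally forms narrow peaks at active promoters, whereas H3K27me3 is placed by Polycomb repressive complex 2 and marks silenced genes. Loss of lamin B1 is a known feature of senescent fibroblasts, both after serial passage and after activated Ras.

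Covered gaps were mostly short. Their lengths ran between 60 and 2900 kb with a median of 230 kb (quartiles 130 and 430 kb). In other gaps the median was 300 kb (quartiles 142.5 and 677.5 kb). Among these, the 1375 gaps that met no Ras-induced mesa had a median of 260 kb (quartiles 130 and 570 kb). The 279 covered over less than 50% had a median of 670 kb (quartiles 320 and 1250 kb). A rule on percent cover is met more easily by a short gap, so length and the choice of gaps are tied. Together they spanned 106 Mb, against 860 Mb of other gaps. Of gaps of 60 to 100 kb, 19.1% were covered (50 gaps), and of those of 300 to 500 kb 20.7% (74 gaps). The share was 10.9% of gaps of 500 to 1000 kb (38 gaps) and 6.30% of gaps of 1000 to 3000 kb (17 gaps). No Ras-induced mesa was shorter than 501 kb. All 251 covered gaps under 501 kb, 82.3% of the set, are thus shorter than the shortest mesa, and a mesa that covers them must reach beyond them.

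The mesas lay over covered gaps in 4 ways. A gap counts as bridged where 1 Ras-induced mesa shares at least 1 bp with both flanking LADs, and 165 of 305 covered gaps (54.1%) were bridged, 8.42% of all gaps. Since a bridged gap is wholly covered, no other gap can be one, and the reverse also held: every wholly covered gap was bridged. The mesa entered the LAD on one side in 109 gaps (35.7%), and in 28 gaps (9.18%) separate mesas entered from both sides. In only 3 gaps, of 740 to 1130 kb, did none of the mesas over the gap enter either LAD. Bridging followed length: 92.0% of covered gaps of 60 to 100 kb were bridged, 36.5% of those of 300 to 500 kb, 13.2% of those of 500 to 1000 kb and none of the 17 longer ones.

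**Figure D1:**
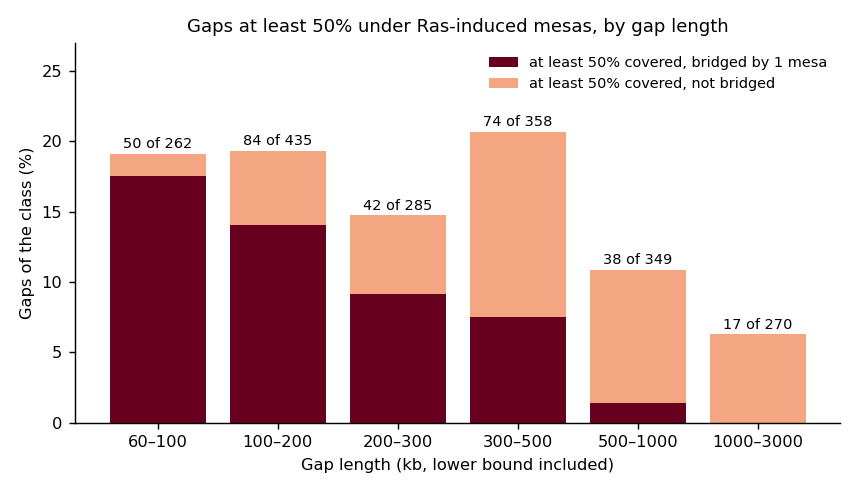
Share of gaps (%, y axis) in 6 classes of gap length (kb, x axis) that were at least 50% under Ras-induced H3K4me3 mesas. Dark bars are gaps bridged by 1 mesa, light bars the rest, and the numbers above give covered gaps of all gaps in the class: bridging makes up most of the shortest class (46 of 50) and none of the longest.

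Whether bridged gaps are a majority depends on the definition: the share was 49.5% when a reach of at least 50 kb into both LADs was required, 46.7% among gaps of at least 100 kb, and 38.1% when gaps with at least 25% cover were taken. The mesa reached at least 50 kb into both LADs in 151 of the 165 bridged gaps and at least 100 kb in 127, and the median of the shorter reach was 160 kb. The smallest was 2.999 kb. The 147 mesas that made these bridges had a median length of 985 kb, against 751 kb for all 755 autosomal Ras-induced mesas. A share of 70.8% of the base pairs of bridging mesas lay in LADs, against 78.1% for all autosomal Ras-induced mesas. For the 139 other mesas that met covered gaps, the values were 765 kb and 60.3%. A bridging mesa must span a whole gap and enter both LADs, so the definition bears on its length and its share in LADs.

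Covered gaps also lay next to each other. They fell into 211 runs of consecutive gaps, and 158 of them (51.8%) had a covered gap as a neighbour. The share of other gaps beside a covered gap is not given here, so this is no contrast with them. There were 25 runs of at least 3 gaps, with 80 covered gaps in them. Of the 286 mesas that met a covered gap, 239 met 1, 40 met 2 and 7 met 3. The 305 gaps are therefore not independent cases. The longest run held 5 gaps near the end of the long arm of chromosome 6, in the interval starting at 166250001 and ending at 169890000. The first gap of that run, at 166250001 to 166380000, was bridged, wholly under a replicative H3K4me3 mesa and 72.5% under H3K27me3 mesas. The next, at 166850001 to 167030000, was wholly under an H3K27me3 mesa and met no replicative H3K4me3 mesa. On chromosome 1, a mesa of 2292 kb bridged 3 covered gaps, at 115450001 to 115890000, 116720001 to 116850000 and 117420001 to 117490000, of which only the second was under a replicative H3K4me3 mesa, along its whole length. On chromosome 17, a mesa bridged 3 gaps of 180, 220 and 250 kb at 14140001 to 14320000, 14550001 to 14770000 and 15070001 to 15320000. All 3 were wholly under a canyon, and the second also lay wholly under a replicative H3K4me3 mesa.

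The next question was whether covered gaps also lay under replicative H3K4me3 mesas, a list the choice of gaps did not use. Most met none of them. The lists hold no signal values, so a gap without a listed mesa cannot be said to lack a gain. Of 305 covered gaps, 204 (66.9%) met no replicative H3K4me3 mesa, against 87.1% of other gaps and 83.9% of all gaps, and the median cover was 0% in covered gaps and in other gaps. Replicative mesas held 16.9% of base pairs of covered gaps and 3.36% of base pairs of other gaps. Most other gaps, 1375 of 1654, met no Ras-induced mesa, and 279 met one over less than 50% of their length. Meeting a replicative mesa at all was as common in these partly covered gaps as in covered gaps: 33.1% of covered gaps and 33.0% of the 279 did, against 8.87% of the 1375 gaps with no Ras-induced mesa. Gap length was not held equal: the median was 670 kb in the 279, 230 kb in covered gaps and 260 kb in the 1375. The extent of replicative cover differed, with 5.98% of base pairs of the 279 gaps under replicative mesas and 2.33% of those of the 1375. By number, 57 covered gaps (18.7%) and 64 other gaps (3.87%) were at least 50% under replicative mesas, with 6.18% over all gaps, and 10 of the 279 partly covered gaps (3.58%) were. Covered gaps thus made up 47.1% of all gaps at least 50% under replicative mesas. Wholly under a replicative mesa were 35 covered gaps (11.5%) and 33 other gaps (2.00%), with 3.47% over all gaps.

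The classes by how the Ras-induced mesa lay differed in length. Medians were 150 kb in bridged gaps, 545 kb with separate mesas and 370 kb with entry on one side. Length and position of the mesa were not separated. Replicative cover, which was highest in covered gaps under 200 kb, also differed among these classes. It was 24.4% of base pairs in bridged gaps, 16.9% where separate mesas entered from both sides, 13.03% where a mesa entered on one side and 4.01% in the 3 gaps with the mesa inside. The order was another for the share of gaps that met a replicative mesa at all, which was 30.9% of bridged gaps, 53.6% of those with separate mesas and 31.2% of those entered on one side. Both kinds of senescence gave a bridging mesa at 32 gaps, which is 19.4% of the 165 gaps bridged after Ras and 47.1% of the 68 gaps bridged in replicative senescence. At these 32 gaps the Ras-induced mesa was the longer of the pair by median, at 1119 kb against 813 kb for the replicative mesa. Their shared interval took up a median of 72.2% of the Ras-induced mesa and 100% of the replicative one. The longest gap at least 50% under both lists lay on chromosome 16 at 84650001 to 86150000, with 58.9% under Ras-induced mesas, 50.5% under replicative mesas and 98.1% under canyons.

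**Figure D2:**
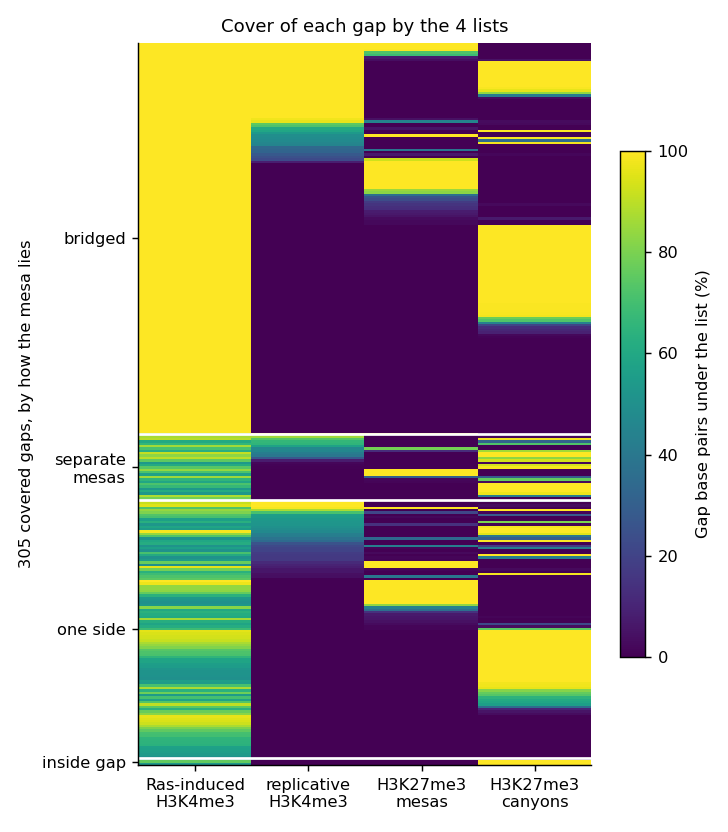
Cover (%, colour) of each of the 305 covered gaps (rows) by the 4 region lists (columns), grouped by how the Ras-induced mesa lies and sorted within each group by replicative H3K4me3, H3K27me3 mesa and canyon cover. The Ras-induced column was used to choose the gaps; in the other columns most rows are near 0 or near 100%, and 204 rows are at 0 for replicative H3K4me3.

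Within covered gaps, replicative mesas lay mainly on the part that the Ras-induced mesa also covered. Bridged gaps have no part outside the mesa, so the 140 covered gaps that were not bridged are compared: replicative mesas held 17.5% of their 50.9 Mb under the Ras-induced mesa and 5.20% of their 23.4 Mb outside it. In the 279 partly covered gaps the corresponding shares were 17.7% of 56.2 Mb and 2.47% of 187.5 Mb. Canyons showed no such contrast: in the 140 gaps they held 50.7% of base pairs under the Ras-induced mesa and 49.8% of those outside it. For H3K27me3 mesas the shares were 12.4% and 10.0%.

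Replicative mesas held 37.4% of the base pairs of LADs beside covered gaps and 21.2% of those beside other gaps. In these and all pooled values of flanking LADs, a LAD counts for each gap beside it. Some LADs therefore count again within a group or enter both groups. Beside the 279 partly covered gaps the value was close to that of covered gaps, at 35.4%, and beside the 1375 gaps with no Ras-induced mesa it was 18.5%. All 57 covered gaps at least 50% under replicative mesas had replicative mesa in a flanking LAD, and so had all 64 such other gaps. No replicative mesa was shorter than 502 kb, so one that meets a shorter gap must reach into a LAD. Where over 50% of the flanking LAD base pairs lay under replicative mesas, 43 of 111 covered gaps (38.7%) and 44 of 303 other gaps (14.5%) were themselves at least 50% under them. With flanks up to 50% replicative, the counts were 14 of 79 covered gaps (17.7%) and 20 of 374 other gaps (5.35%). In both classes the share was higher in covered gaps. Flank cover within a class and gap length were not held equal, and whether they account for the difference was not tested. Flanking LADs had a median length of 470 kb beside covered gaps and 420 kb beside other gaps.

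Cover across the LAD border had a different shape for the lists. In the bin at 475 to 500 kb inside the LADs beside covered gaps, 61.1% of base pairs were under Ras-induced mesas. The share was 81.2% in the last 25 kb of the LADs and 81.9% in the first 25 kb of the gap. The rule helps to set these levels. Beside other gaps the 3 values were 29.5%, 9.54% and 7.55%. Replicative H3K4me3 mesas covered 45.5% of the bin at 475 to 500 kb inside the LADs beside covered gaps, 24.8% of the last 25 kb of the LAD, 22.5% of the first 25 kb of the gap and 16.1% at 100 to 125 kb into it. Beside other gaps the corresponding values were 30.9%, 8.55%, 7.04% and 3.81%. Both curves declined out of the LAD and into the gap, and the curve of covered gaps was the higher at each of these distances. The bins do not hold the same borders. Beside covered gaps the bin at 475 to 500 kb inside LADs held 304 borders. Bins at the border held 610, and the bin at 100 to 125 kb into the gap held 336. Beside other gaps the counts were 1538, 3308 and 2120. Bins far from the border hold only the longer LADs or gaps, for every list. Inside LADs the bins run on to the far end of the LAD, whereas in gaps they stop at the midpoint. In a LAD not much longer than 475 kb, the bin at 475 to 500 kb thus lies near its opposite border. H3K27me3 mesas covered 39.3% of the bin at 475 to 500 kb inside LADs beside covered gaps and 15.6% of the first 25 kb of the gap, against 25.8% and 6.29% for other gaps. Canyon cover was the reverse. Beside covered gaps it was 14.8% at 475 to 500 kb inside LADs and 37.7% in the first 25 kb of the gap. Beside other gaps the values were 23.4% and 46.8%.

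**Figure D3:**
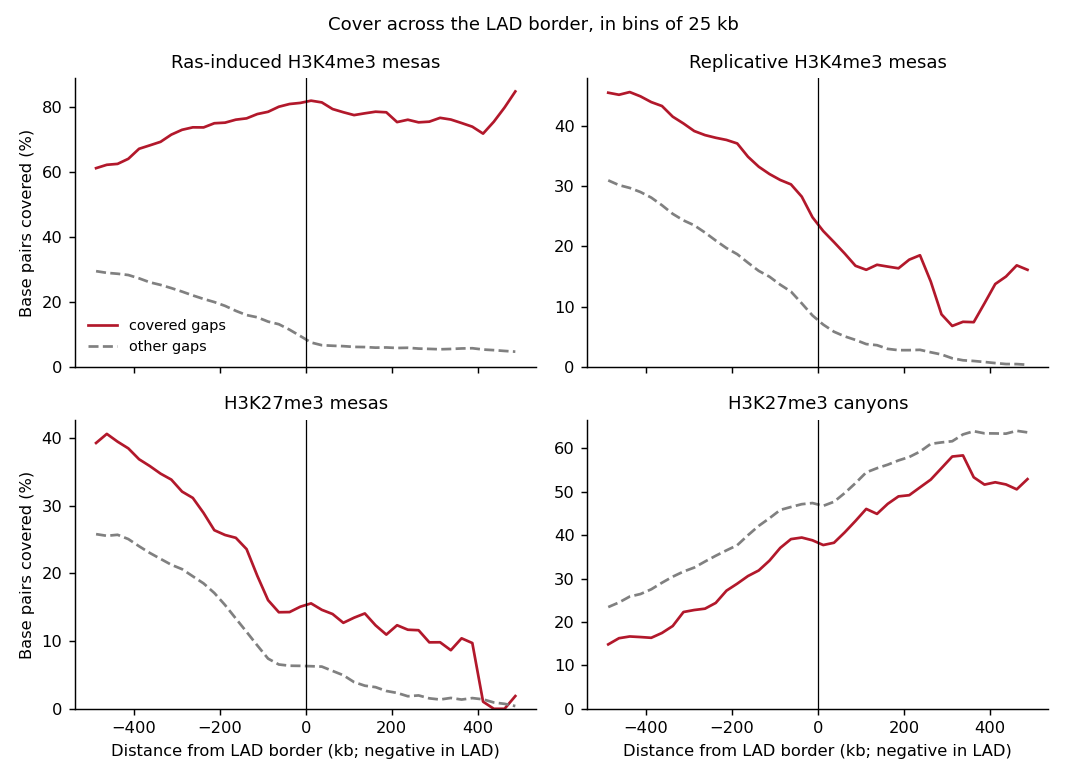
Base pairs under each list (%, y axis) by distance from the LAD border (kb, x axis, negative inside the LAD), in bins of 25 kb over both borders of the 305 covered gaps (solid) and the 1654 other gaps (dashed). In covered gaps the Ras-induced curve rises inside the LAD toward the border and runs level across it, which the choice of gaps helps to set. The replicative curve declines into the gap. Bins far from the border hold only the longer LADs or gaps, and they run through the whole LAD but only to the midpoint of the gap. Beyond about 400 kb into the gap the solid lines rest on few gaps (34 borders in the last bin).

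H3K27me3 gain, seen in replicative senescence, was also more frequent in covered gaps. H3K27me3 mesas held 12.0% of base pairs of covered gaps and 3.14% of base pairs of other gaps. At least 50% under such mesas were 42 covered gaps (13.8%) and 97 other gaps (5.86%), with 7.10% over all gaps. Wholly under them were 34 covered gaps (11.1%) and 78 other gaps (4.72%), with 5.72% over all gaps. The majority of covered gaps, 217 (71.1%), met no H3K27me3 mesa, against 86.3% of other gaps and 83.9% of all gaps. In the 279 partly covered gaps H3K27me3 mesas held 2.70% of base pairs. Of flanking LAD base pairs, 39.0% were under H3K27me3 mesas beside covered gaps and 23.4% beside other gaps, but 37.9% beside the partly covered ones and 20.6% beside those with no Ras-induced mesa. The longest covered gap at least 50% under H3K27me3 mesas was on chromosome 8 at 141660001 to 142440000 and wholly under them. It lay between LADs of 4970 and 2160 kb, and 86.1% of the base pairs of these LADs were under H3K27me3 mesas as well.

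Loss of H3K27me3 was the commonest of the 3 replicative changes in covered gaps. Canyons held 46.3% of base pairs of covered gaps and 56.7% of base pairs of other gaps. Among other gaps they held 64.1% in the 279 partly covered ones and 53.8% in the 1375 with no Ras-induced mesa. At least 50% under canyons were 117 covered gaps (38.4%) and 776 other gaps (46.9%), with 45.6% over all gaps. Wholly under a canyon were 74 covered gaps (24.3%) and 577 other gaps (34.9%), with 33.2% over all gaps, while 147 covered gaps (48.2%) and 700 other gaps (42.3%) met none. The lower cover was not shared by all length classes. In gaps of 60 to 100 kb canyons held 36.9% of covered-gap base pairs and 31.2% in other gaps, in those of 200 to 300 kb 48.4% and 46.8%, and in those of 100 to 200 kb 27.5% and 36.3%. The longest covered gap at least 50% under canyons was on chromosome 9 at 99440001 to 101260000, with 87.4% under Ras-induced mesas and 96.7% under canyons, and met neither of the other lists.

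**Figure D4:**
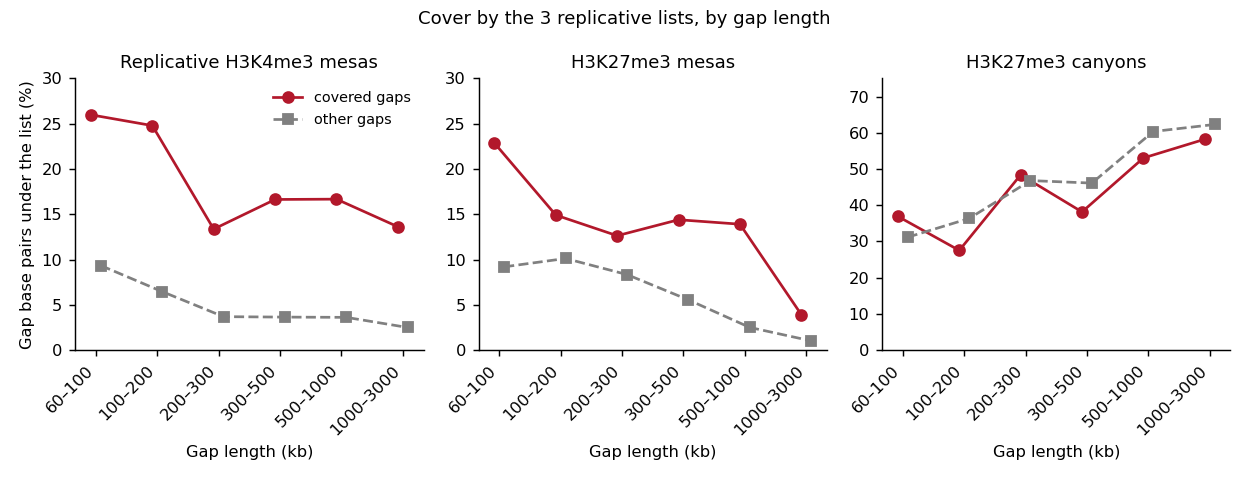
Base pairs (%, y axis) under replicative H3K4me3 mesas, H3K27me3 mesas and canyons in covered gaps (red circles) and other gaps (grey squares), by gap length in kb (x axis). Covered gaps lie above other gaps in each of the 6 classes for both mesa lists, while for canyons the lines cross.

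For both mesa lists the order held in each length class. Replicative H3K4me3 mesas held between 13.4% and 26.0% of covered-gap base pairs over the 6 classes, and between 2.50% and 9.34% in other gaps. For H3K27me3 mesas the ranges were 3.93 to 22.9% in covered gaps and 1.03 to 10.1% in other gaps. In the longest class, with 17 covered gaps, H3K27me3 mesas held 3.93% of base pairs in covered gaps and 1.03% in other gaps.

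The 57 covered gaps and 64 other gaps at least 50% under replicative H3K4me3 mesas were divided by change of H3K27me3. Shares in this paragraph are of all covered gaps or of all other gaps. Of the covered gaps, 20 (6.56%) were at least 50% under both a replicative H3K4me3 mesa and a canyon, against 13 other gaps (0.786%). A further 8 covered gaps (2.62%) and 6 other gaps (0.363%) were at least 50% under both replicative mesa lists, H3K4me3 and H3K27me3. The remaining 29 covered gaps (9.51%) and 45 other gaps (2.72%) were less than 50% under either H3K27me3 list. Gaps at least 50% under a canyon and under neither mesa list formed the largest class with a change. They were 97 covered gaps (31.8%) and 763 other gaps (46.1%). None of the 3 lists reached 50% in 117 covered gaps (38.4%) and 736 other gaps (44.5%), and none touched the gap at all in 59 covered gaps (19.3%) and 484 other gaps (29.3%).

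The chromosomes contributed unevenly. Covered gaps made up 38.8% of the gaps of chromosome 19 (19 of 49), 32.7% of those of chromosome 16 (18 of 55) and 25.3% of those of chromosome 11 (23 of 91). At the low end were chromosome 13 at 7.35% (5 of 68) and chromosome 18 at 8.16% (4 of 49). Pooled over the gene-dense chromosomes 16, 17, 19, 20 and 22, 22.3% of gaps were covered (59 of 264). Chromosomes 16 and 19 carried that value, with 37 of 104, whereas 17, 20 and 22 together had 22 of 160 (13.8%), below the 15.6% of all gaps. On the gene-poor chromosomes 4, 13 and 18 it was 10.5% (27 of 258). Of covered gaps, 55 (18.03%) had their midpoint within 5 Mb of the end of the mapped span of a chromosome, as had 126 other gaps (7.62%).

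Replicative H3K4me3 cover was higher in covered than in other gaps on 20 of 22 autosomes. Averaged over chromosomes it was 19.5 ± 18.1% of base pairs in covered gaps and 3.50 ± 2.11% in other gaps (SD over 22 autosomes, which are not replicates). The exceptions were chromosome 7, with 0.935% in covered gaps and 4.52% in other gaps, and chromosome 9, with 5.86% and 7.19%. The highest value, 88.3% on chromosome 22, comes from 3 gaps. On chromosome 19, covered gaps had 10.3% and other gaps 0%. H3K27me3 mesa cover was higher in covered gaps on 15 of 22 autosomes and averaged 10.9 ± 8.45% in covered gaps and 3.65 ± 2.39% in other gaps. Canyon cover was higher in covered gaps on 9 of 22, and averaged 45.5 ± 19.8% in covered gaps and 51.8 ± 15.2% in other gaps, so that its mean difference of -6.28 points was smaller than its SD of 21.6 points over chromosomes.

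**Figure D5:**
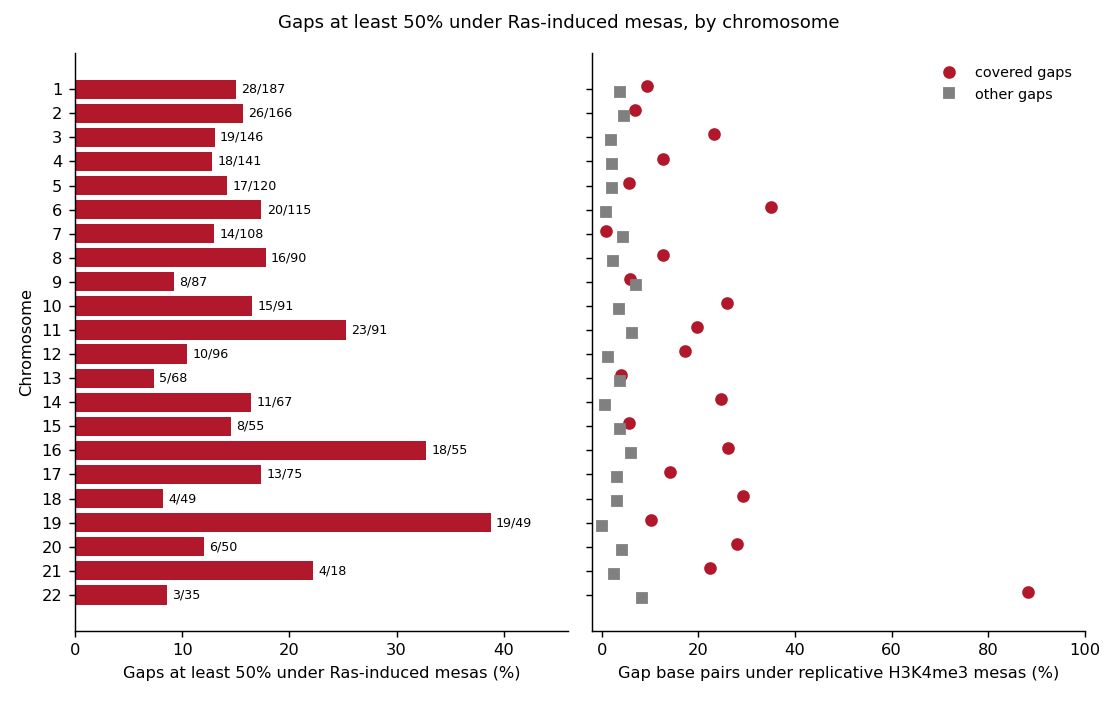
Left, share of the gaps of each autosome (rows) that were at least 50% under Ras-induced mesas (%), with covered gaps of all gaps beside each bar. Right, base pairs under replicative H3K4me3 mesas (%) in covered gaps (red circles) and other gaps (grey squares): covered gaps are the higher on 20 of 22 chromosomes, and the point at 88.3% on chromosome 22 rests on 3 gaps.

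The longest covered gap, on chromosome 1 at 199250001 to 202150000 (2900 kb), lay between LADs of 150 and 160 kb. It was just over the threshold, at 50.8% under Ras-induced mesas, with 16.8% under replicative mesas, 42.7% under canyons and 1.24% under H3K27me3 mesas. The next in length, on chromosome 5 at 148120001 to 150150000 (2030 kb), was 58.5% under Ras-induced mesas and met no replicative H3K4me3 mesa. At the short end, 16 covered gaps had the shortest length of 60 kb. Among the first of these, a gap on chromosome 2 at 119720001 to 119780000 was wholly under a replicative H3K4me3 mesa, between LADs of 5280 and 450 kb that were 57.0% under such mesas. Another 60 kb gap, on chromosome 1 at 17770001 to 17830000, met none of the 3 replicative lists although 73.4% of its flanking LADs lay under replicative H3K4me3 mesas.

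The threshold cut through a continuum among partly covered gaps. Beside the 165 wholly covered gaps, 42 covered gaps were between 50 and 60% under Ras-induced mesas, and 55 other gaps were between 40 and 50%. The lowest covered gaps were on chromosome 2 at 108820001 to 108960000, at 50.0% with all of it under a canyon, and on chromosome 8 at 141660001 to 142440000, at 50.0% and described above. Just outside lay chromosome 17 at 7060001 to 7460000, at 49.7% with all of it under a canyon, and chromosome 22 at 37900001 to 39700000, at 49.5% with 28.2% under replicative mesas and 99.8% under canyons.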

How the data were processed

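Chromatin of IMR90 cells was profiled by ChIP-seq. The submitters' processing notes name Bowtie 0.12.5 as the aligner and hg18 as the build. The authors deposited 5 lists of regions (2054 LADs, 806 Ras-induced and 648 replicative H3K4me3 mesas, 1440 H3K27me3 mesas and 1374 canyons) that hold coordinates only, so depth per library is unknown and the cell label could not be checked against marker levels. The region caller, thresholds, use of the H3 libraries and pooling are not stated in the labels or headers. Lamin B1 windows were merged into LADs, per the file headers, and replicative H3K4me3 mesas are a combined list of more of the mark. The direction of the other lists is taken from their names.

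Gaps run between consecutive LADs, and 20 gaps over 3 Mb were dropped. Cover is shared base pairs, with region ends as deposited, computed with Python 3.11.15 and numpy 2.4.6 and tested on simulated regions. Positions are printed 1-based. No test was run, because the lists give no values per sample. The members, lists and comparisons were chosen with earlier results of these data known. The rule for named regions took the longest and shortest covered gaps, those nearest the threshold, the longest under each list, the mesas that meet the most covered gaps and the longest run, and a part of them is given. Genes and sequences of hg18 were not used here, so the listed genes were not placed.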

Additional observations from a re-analysis of the deposited data

How the results depend on the processing

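The level of cover required set most values. At 25% and 75% required cover, 38.1% and 76.4% of gaps were bridged, and replicative H3K4me3 mesas held 11.9% and 23.02% of their base pairs. At 25%, H3K27me3 mesas held 7.36% and canyons 55.5%, and the differences from other gaps were 4.22 points for H3K27me3 mesas and -0.023 points for canyons, against 8.86 and -10.3 points at 50%. At 100%, the 165 gaps left had a median length of 150 kb, all (100%) were bridged, and replicative mesas held 24.4% and canyons 36.8%, a canyon difference of -19.4 points. Bridging was 46.7% among gaps of at least 100 kb, and 41.6% when at least 100 kb in both LADs was required. As a mean over gaps canyon cover was 38.9%, and 38.4% of gaps were at least 50% under canyons. Among gaps met by a Ras-induced mesa, an alternative added after seeing the data, the canyon difference was -17.7 points. Leaving out each chromosome in turn gave 12.3 to 14.8 points for the replicative H3K4me3 difference, 8.04 to 9.32 for H3K27me3 mesas and -12.8 to -8.30 for canyons. The replicative H3K4me3 difference, 13.5 points at 50%, stayed within 1.5 times that value under every alternative run, and no difference turned its sign. No gap was under 60 kb, so a minimum of 50 kb changed nothing. No paired analysis was possible because the lists hold no values per sample, and leaving out a replicate was not possible for the same reason. Depth is unknown, and its effect on which regions were listed was not tested.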

Other observations

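Chromosome X was not part of the covered gaps. On it, 20 of 46 gaps (43.5%) were at least 50% under Ras-induced mesas, a higher share than on any autosome, and 13 of these 20 were bridged. Replicative H3K4me3 mesas held 44.2% of base pairs in the 20 gaps and 16.5% in the 26 other gaps of X, H3K27me3 mesas held 60.2% and 31.8%, and canyons 9.81% and 38.6%. Their median length was 190 kb, the same as that of all gaps of X. Of the 20 autosomal gaps over 3 Mb, none was at least 50% under Ras-induced mesas, and the highest cover was 44.5%.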
